A study of Mus musculus with 10 samples.

Results

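The antioxidant enzymes described here are 10 nuclear genes whose products remove superoxide, peroxides and their by-products: the superoxide dismutase genes Sod1 and Sod2, catalase (Cat), the glutathione peroxidase genes Gpx1, Gpx3 and Gpx4, the peroxiredoxin genes Prdx3 and Prdx5, thioredoxin reductase 1 (Txnrd1) and heme oxygenase 1 (Hmox1). They were chosen by gene name, with earlier results of these data known, and all 10 of 10 were present among the 23337 genes of the counts table. RNA was sequenced from cardiomyocytes, the contracting cells of the heart, of 10 mice aged 14 days. The knockout group (n = 5) carried 2 floxed alleles of Actn2, the gene of the Z-disc protein alpha-actinin-2, and the heterozygote group (n = 5) carried 1 floxed and 1 normal allele. Both groups had received the same AAV9 vector on postnatal day 1, in which the cardiac troponin T promoter drives Cre recombinase, so the control animals too carry Cre and a floxed allele, and animals without Cre were not analysed here. Cells were released by collagenase, sorted by fluorescence, and sequenced from 10 ng of total RNA after SMART-Seq amplification over 8 cycles, per the labels' protocols.

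Superoxide, a by-product of the mitochondrial respiratory chain, is turned into hydrogen peroxide by superoxide dismutases, and the peroxide is then reduced by catalase, by glutathione peroxidases or by peroxiredoxins. Glutathione peroxidases draw their electrons from glutathione and peroxiredoxins from thioredoxin, which thioredoxin reductase regenerates with NADPH. Cardiomyocytes are packed with mitochondria, and their antioxidant enzymes are spread over the mitochondrial matrix (Sod2, Prdx3), the cytosol (Sod1, Gpx1, Txnrd1), the peroxisome (Cat), several compartments at once (Gpx4, Prdx5) and the outside of the cell (Gpx3, the secreted form).

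Total counts ran from 8086656 to 25237696 per library. Actn2, the targeted gene, was lower in each of the 5 knockouts than in each of the 5 heterozygotes, at 1217 ± 55.3 against 3181 ± 358 CPM (SD, n = 5). CPM is the normalised read count, scaled to a common library size with TMM factors. The summed level of 10 cardiomyocyte markers (1 called higher, 1 called lower) was 104463 to 130385 CPM in knockouts and 105443 to 132482 CPM in heterozygotes. Endothelial markers (10 genes, 2 of them called lower, all with counts) summed to 369 to 642 CPM in knockouts and 552 to 890 CPM in heterozygotes. Macrophage markers (10 genes, 5 tested, 1 called lower) summed to 7.92 to 9.34 CPM in knockouts and 11.8 to 32.8 CPM in heterozygotes, with Fcgr1 and Ptprc at 0 in some libraries. Fibroblast markers (10 genes, none of the 9 tested called) summed to 398 to 744 and 402 to 616 CPM. In such bulk libraries, fewer cells of a type and less RNA per cell cannot be told apart.

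Gpx3 rose 4.34-fold in the knockout, while Sod2, Prdx3 and Prdx5 fell to 0.702, 0.686 and 0.616 of the heterozygote level, and Gpx4 fell to 0.790 of it by a narrower margin. Sod1, Cat, Gpx1, Txnrd1 and Hmox1 did not pass the test. All 10 genes had enough counts to be tested. A gene counts as called when edgeR's adjusted p, over all 11870 tested genes, is under 0.05, and 5 of the 10 were called, against 18.9% of all tested genes. Of these, 4 were lower, where 8.64% of all tested genes were called lower, and 1 was higher, where 10.2% were called higher. Of all calls, 54.3% were higher with TMM scaling, 48.2% with upper-quartile scaling and 68.9% when libraries were scaled by their totals alone. The median log2 fold change was -0.18 over the 10 genes and 0.00227 over all genes tested. In the same 5 genes the groups did not overlap, which was so for 14.7% of all tested genes (8.41% with the knockouts higher and 6.32% with them lower).

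**Figure D1:**
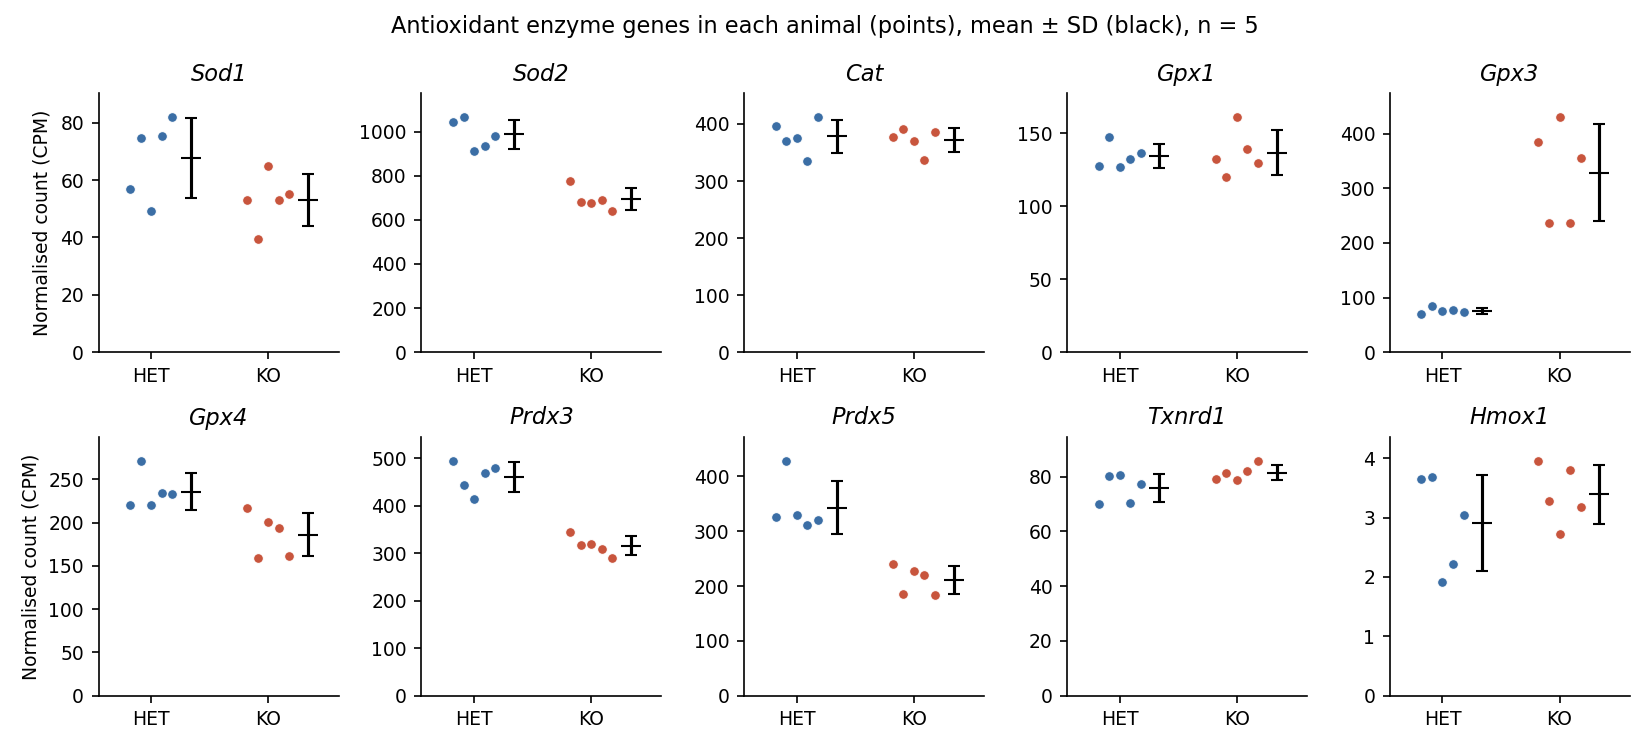
Normalised read count (CPM, linear axes from 0) of each antioxidant enzyme gene in the 5 heterozygotes (HET, blue) and 5 knockouts (KO, red), 1 point per animal, with the mean ± SD in black. All knockouts lie above all heterozygotes for Gpx3, and below them for Sod2, Gpx4, Prdx3 and Prdx5, where the gap is smallest for Gpx4 (217 against 220.0 CPM).

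Promoter windows of 4 of these genes are shown for the strongest rise (Gpx3), the strongest fall (Prdx5) and the pair that held a match to the antioxidant response element, the site at which the transcription factor NRF2 acts (Sod1 and Txnrd1). RefSeq promoter windows of build GRCm38.p6, reaching from 250 bases before to 50 bases after a start, were found for 9 of the 10 genes (14 windows). Each is written 5′ to 3′ on the strand of the gene, and capitals mark a match. The Prdx5 window, 6910057 to 6910356, lies wholly outside the counted Prdx5 gene (6906819 to 6909645, minus strand). It therefore does not hold the start of the gene as counted.
Gpx3, chr11:54902604-54902903, plus strand: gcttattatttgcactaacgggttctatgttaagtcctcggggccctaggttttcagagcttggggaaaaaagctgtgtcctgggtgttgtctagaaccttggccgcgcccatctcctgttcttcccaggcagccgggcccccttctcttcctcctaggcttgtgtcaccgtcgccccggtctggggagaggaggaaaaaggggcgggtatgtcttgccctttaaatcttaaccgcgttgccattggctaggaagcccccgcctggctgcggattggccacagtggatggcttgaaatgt
Prdx5, chr19:6910057-6910356, minus strand: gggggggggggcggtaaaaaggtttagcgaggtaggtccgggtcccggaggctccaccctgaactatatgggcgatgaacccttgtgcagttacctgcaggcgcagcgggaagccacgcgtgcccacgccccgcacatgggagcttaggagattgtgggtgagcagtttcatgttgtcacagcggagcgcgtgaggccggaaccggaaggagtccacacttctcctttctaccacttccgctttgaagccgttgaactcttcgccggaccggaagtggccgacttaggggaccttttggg
Sod1, chr16:90220512-90220811, plus strand: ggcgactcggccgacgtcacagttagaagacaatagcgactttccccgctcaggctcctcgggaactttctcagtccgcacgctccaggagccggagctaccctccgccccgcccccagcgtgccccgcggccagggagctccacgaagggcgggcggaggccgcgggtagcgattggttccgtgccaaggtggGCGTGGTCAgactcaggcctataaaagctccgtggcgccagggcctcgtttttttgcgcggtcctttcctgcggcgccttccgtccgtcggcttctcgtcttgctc
Txnrd1, chr10:82858956-82859255, plus strand, 1 of 3 starts: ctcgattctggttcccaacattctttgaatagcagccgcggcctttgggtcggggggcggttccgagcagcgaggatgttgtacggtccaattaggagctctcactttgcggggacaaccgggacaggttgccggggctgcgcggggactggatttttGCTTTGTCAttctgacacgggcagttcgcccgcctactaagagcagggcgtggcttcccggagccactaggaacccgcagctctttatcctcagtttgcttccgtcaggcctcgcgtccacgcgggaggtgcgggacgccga
The motif searched for was TGACNNNGC on both strands, whose first letters are also found in AP-1 and CREB sites. It was present in 2 of the 14 windows and in 12.4% of the 32851 windows of all genes. The end farther from the start lay 56 bases before it in Sod1 and 92 bases before it in Txnrd1, with the motif on the minus strand in both. NRF1, a regulator of nuclear genes for mitochondrial proteins, has a core motif that was searched on both strands. It matched 2 of the 4 overlapping or alternative Gpx4 windows, no window of another member and 4.60% of all windows. Those 2 Gpx4 windows overlap and hold the same single site. The site of the estrogen-related receptors, TCAAGGTCA, which contains the half-site of other nuclear receptors, matched 0 of the 14 windows and 0.423% of all. Neither of the genes with an antioxidant response element match, Sod1 and Txnrd1, was called in the comparison. These matches describe the letters of the windows only.

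Gpx3, the secreted and plasma glutathione peroxidase, is a selenoprotein that lies on chromosome 11 at 54902854 to 54910382 (mm10, plus strand, 5 exons, 1517 bases of exon). It was at 70.8, 84.6, 74.7, 76.6 and 72.7 CPM in heterozygotes 1 to 5. The knockouts, from 1 to 5, were at 385, 237, 431, 236 and 355 CPM. The heterozygotes sat within a narrow band, and the knockouts fell into a wider one, with animals 2 and 4 at its lower end and animal 3 at its top. Gpx3 averaged 75.9 ± 5.34 CPM in the heterozygote and 329 ± 88.3 CPM in the knockout (SD, n = 5), so that the coefficient of variation was 7.04% in the heterozygote and 26.9% in the knockout. This is a rise of 2.12 on the log2 scale, with SE 0.163, an adjusted p of 1.22e-06 in edgeR and a 95% interval of 3.40-fold to 5.52-fold. The call held in each fit that left out 1 animal (2.0 to 2.21) and with endothelial marker expression as a covariate (1.87, adjusted p 0.000197).

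In CPM, Gpx4 was the most abundant of the 3 glutathione peroxidase transcripts in every heterozygote and Gpx3 in every knockout. Gpx3 made up 17% ± 0.497 of the counts of Gpx1, Gpx3 and Gpx4 together in the heterozygote and 49.8% ± 5.90 in the knockout (SD, n = 5). The lowest knockout share was 41.5% in animal 4 (Wilson 95% interval 40.2 to 42.8%) and the highest 55.0% in animal 5 (54.1 to 55.9%). Heterozygote shares ran from 16.4% (15.4 to 17.5%) to 17.7% (16.4 to 19.1%), with no overlap between the groups. After division by exon length the shares were 13.4% ± 0.383 and 42.6% ± 5.68. These intervals cover counting error only, and since the share is a value over members it was not tested.

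Gpx1, the cytosolic and mitochondrial glutathione peroxidase (chromosome 9, 108339080 to 108340344), was at 128, 147, 127, 132 and 136 CPM in heterozygotes 1 to 5. Knockouts 1 to 5 had 132, 119.9, 161, 139 and 129.8 CPM. The knockouts spread to either side of the heterozygotes, with animal 2 below them all and animal 3 above them all. The 95% interval of the difference ran from 0.883-fold to 1.17-fold (log2 fold change 0.02, edgeR adjusted p 0.892), and the sign changed with upper-quartile scaling and without knockout 3.

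Gpx4, which reduces peroxidised lipids in membranes and has cytosolic, nuclear and mitochondrial forms, lies on chromosome 10 at 80053510 to 80056439. It was at 220.0, 272, 220.0, 234 and 233 CPM in heterozygotes 1 to 5. Its level in knockouts 1 to 5 was 217, 159, 201, 194 and 161 CPM. The groups did not overlap, but knockout 1 lay just under the lowest heterozygotes, and heterozygote 2 stood apart above the others. Gpx4 fell by 0.34 on the log2 scale, with SE 0.107 and an adjusted p of 0.0385 in edgeR. The call was lost without heterozygote 2 (-0.28, adjusted p 0.0731), 4 (0.0540) or 5 (0.0650), and without knockout 2 (0.0965), 3 (0.0547), 4 (0.0620) or 5 (0.102). It was also lost with library totals (0.0823), without a filter (0.0510), with limma's voom (0.0501) and with the endothelial covariate (0.266), while the value stayed negative in all of these.

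Sod2 encodes the manganese superoxide dismutase of the mitochondrial matrix and lies on chromosome 17 at 13007839 to 13018119 (plus strand, 5 exons). It was at 1044, 1067, 913, 936 and 982 CPM in heterozygotes 1 to 5. The knockouts, from 1 to 5, were at 778, 681, 678, 691 and 641 CPM. The highest knockout, animal 1, lay clearly below the lowest heterozygote, animal 3. Means were 988 ± 66.6 in the heterozygote and 694 ± 50.8 CPM in the knockout (SD, n = 5). On the log2 scale Sod2 fell by 0.51, with SE 0.0835 and an adjusted p of 0.000763 in edgeR. Heterozygote 3 was also the library high in interferon-response genes, at 768 CPM for 12 genes against 51.7 to 72.1 CPM in the other 9, and Sod2 is known to be induced by inflammatory cytokines. Without any 1 animal, this one included, the log2 fold change of Sod2 stayed between -0.55 and -0.48.

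Sod1, the copper- and zinc-containing dismutase of the cytosol (chromosome 16, 90220742 to 90226324), was at 57.0, 74.7, 49.2, 75.5 and 82.0 CPM in heterozygotes 1 to 5. In knockouts 1 to 5 it was at 53.2, 39.6, 64.9, 53.0 and 55.3 CPM. The groups overlapped, with heterozygotes 1 and 3 among the knockout values. The log2 fold change of -0.35 (SE 0.152) did not pass (edgeR adjusted p 0.129, unadjusted p 0.0381), and the 95% interval ran from 0.627-fold to 0.985-fold. Without heterozygote 3 it passed (-0.44, adjusted p 0.0438). Sod1 had the widest spread of the genes above 10 CPM in the heterozygotes, with a coefficient of variation of 20.5%.

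Both peroxiredoxins fell. Prdx3, which is found only in mitochondria and takes its electrons from thioredoxin 2, lies on chromosome 19 at 60864066 to 60874538 (minus strand). It was at 496, 444, 416, 469.7 and 479.9 CPM in heterozygotes 1 to 5. Knockouts 1 to 5 had 345, 317, 319, 308 and 291 CPM. The groups lay apart, with less spread inside each than between them, at 461 ± 31.6 and 316 ± 19.7 CPM (SD, n = 5). Prdx3 fell by 0.54 on the log2 scale, with SE 0.0837 and an adjusted p of 0.000467 in edgeR.

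Prdx5, a peroxiredoxin of mitochondria, peroxisomes and cytosol, lies on the same chromosome at 6906819 to 6909645 (minus strand). It was at 325, 429, 329, 311 and 321 CPM in heterozygotes 1 to 5. Its level in knockouts 1 to 5 was 240.3, 185, 228, 219 and 184 CPM. Of the 10 genes it fell most, by 0.70 on the log2 scale (SE 0.114, edgeR adjusted p 0.000728; 0.520-fold to 0.729-fold). Heterozygote 2 stood above the other 4, and without it the change was -0.60 with the call kept. The calls of Sod2, Prdx3 and Prdx5 held whichever of the 10 animals was left out and with the endothelial covariate (-0.54, -0.55 and -0.71).

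Catalase, the peroxisomal enzyme that breaks hydrogen peroxide into water and oxygen, lies on chromosome 2 at 103453904 to 103485153 (minus strand, 13 exons). It was at 397, 371, 375, 336 and 412 CPM in heterozygotes 1 to 5. The knockouts, from 1 to 5, were at 376, 391, 371, 337 and 386 CPM. The knockout values lay inside the heterozygote range, at means of 372 ± 21.0 against 378 ± 29.1 CPM (SD, n = 5). The 95% interval of the difference ran from 0.868-fold to 1.12-fold (edgeR adjusted p 0.887), and its sign changed with library totals and without heterozygote 5 or knockout 4.

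Txnrd1, the cytosolic selenoprotein that reduces thioredoxin 1 (chromosome 10, 82833951 to 82897724), was at 70.1, 80.4, 80.7, 70.4 and 77.4 CPM in heterozygotes 1 to 5. Knockouts 1 to 5 had 79.2, 81.5, 78.8, 82.2 and 85.9 CPM. The knockouts sat at the upper edge of the heterozygote range, with 3 of 5 above it. The difference did not pass (log2 fold change 0.11, edgeR adjusted p 0.398), with a 95% interval of 0.955-fold to 1.21-fold.

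Hmox1, the inducible enzyme that opens the heme ring and a standard marker of oxidative stress, was near the lower end of what was measured. Its counts were 15 to 87 per library, or 3.65, 3.68, 1.92, 2.22 and 3.05 CPM in heterozygotes 1 to 5. The knockouts had 3.96, 3.28, 2.73, 3.80 and 3.17 CPM. The groups overlapped, and at this depth the 95% interval was wide, from 0.805-fold to 1.63-fold (edgeR adjusted p 0.619). The gene lies on chromosome 8 at 75093618 to 75100593 and is strongly expressed by macrophages in general, whose markers were lower in the knockouts (7.92 to 9.34 against 11.8 to 32.8 CPM). Their part in the Hmox1 value was not tested. None of the 10 genes shared exon sequence with another gene of the annotation.

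To compare levels between genes, CPM was divided by the kilobases of exon. In the heterozygote, Prdx5 ranked highest on this scale with 499 ± 70.6 CPM per kilobase (SD, n = 5), ahead of Prdx3 (319 ± 21.9), Sod2 (258 ± 17.4) and Gpx4 (196 ± 17.7). The ranges of these 4 did not overlap their neighbours in the order. Cat (148 ± 11.4), Gpx1 (128 ± 7.83) and Sod1 (104 ± 21.4) followed, and here neighbours overlapped. Gpx3 (50 ± 3.52), Txnrd1 (18.9 ± 1.31) and Hmox1 (1.84 ± 0.514) came last, each apart from the next. In the knockout Gpx3 moved from rank 8 to rank 3 (217 ± 58.2 CPM per kilobase). Its range overlapped those of Prdx5, Prdx3 (219 ± 13.6), Sod2 (181 ± 13.3) and Gpx4 (155.1 ± 21). From Prdx3 down to Gpx1 (130.3 ± 14.7), each gene overlapped the next in the knockout. Prdx5 (307 ± 37.1) kept the highest mean, with its lowest knockout at 266.9 and the highest knockout of Gpx3 at 283.9. Without division by length the order in the heterozygote began with Sod2, Prdx3 and Cat.

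**Figure D2:**
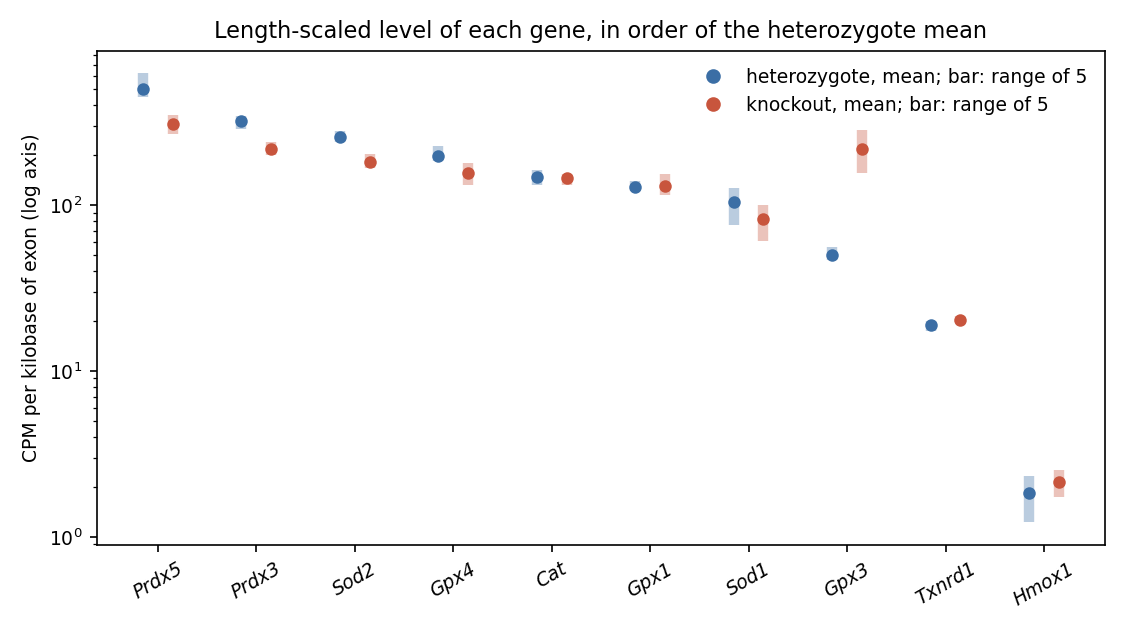
Level of each gene as CPM per kilobase of exon, on a log axis, in order of the heterozygote mean; dots are group means and bars the range of 5 animals. Heterozygotes (blue) and knockouts (red) lie together for Cat, Gpx1 and Txnrd1, while Gpx3 moves from 50 to 217 CPM per kilobase.

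Next, 4 pairs of enzymes with the same reaction were compared inside each animal, to see whether they changed unequally. The log2 ratio of the cytosolic Txnrd1 to its mitochondrial counterpart Txnrd2 was 0.44, 0.34, 0.49, 0.48 and 0.69 in the heterozygotes, taken from 1 to 5, and 1.01, 1.07, 0.76, 1.07 and 0.99 in the knockouts. Every knockout lay above every heterozygote, with a difference of 0.49 (p = 0.00794 by a two-sided exact permutation test, which with 5 against 5 cannot give less, and 0.0159 adjusted over the 4 ratios). Txnrd2 itself fell from 54.2 ± 6.26 to 41.4 ± 3.43 CPM (log2 fold change -0.39, edgeR adjusted p 0.0141). With the endothelial covariate the value was -0.46 and the call was lost (adjusted p 0.0677). Its counts are uncertain, since part of its exon sequence is shared in the annotation.

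The ratio of Hmox1 to the constitutive Hmox2 was also higher in all 5 knockouts, at -3.56 ± 0.212 against -4.16 ± 0.318 on the log2 scale (SD, n = 5; difference 0.60, exact permutation p = 0.00794, adjusted 0.0159). The groups nearly touched, with knockout 3 at -3.863 and heterozygote 1 at -3.872, and Hmox1 had only 15 to 87 counts per library. Hmox2 fell from 51.7 ± 5.20 to 40.6 ± 3.14 CPM (log2 fold change -0.35, edgeR adjusted p 0.0178). Its call was lost without heterozygote 1 or knockout 4 (adjusted p up to 0.0506), and it shares exon sequence with 5730403B10Rik. The ratios of Sod2 to Sod1 and of Prdx5 to Prdx3 overlapped between the groups, with differences of -0.17 and -0.15 (exact permutation p = 0.365 and 0.278, both 0.365 when adjusted). An unequal change of the 2 dismutases was thus not shown, although Sod2 alone was called.

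**Figure D3:**
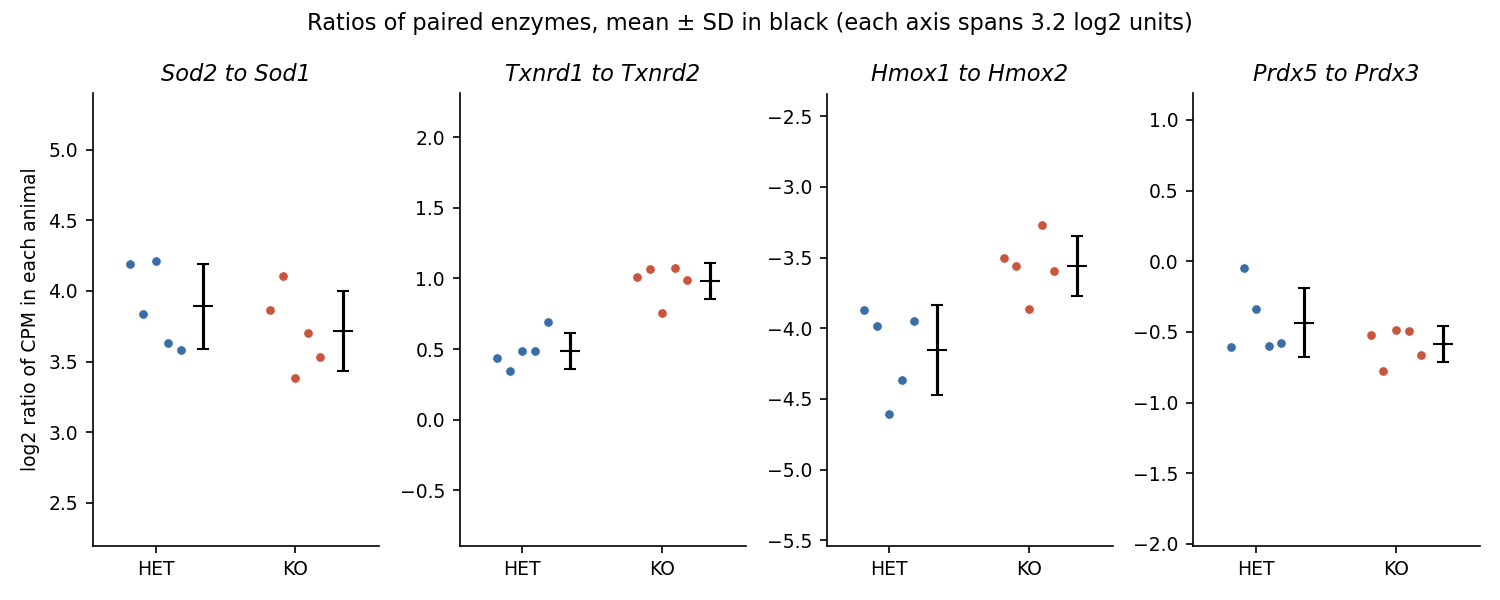
Log2 ratio of CPM of 4 enzyme pairs in each heterozygote (HET, blue) and knockout (KO, red), with mean ± SD in black and an axis of the same span in each panel. Txnrd1 to Txnrd2 and, only narrowly, Hmox1 to Hmox2 are higher in all 5 knockouts, while the other 2 ratios overlap.

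Of 18 other antioxidant enzyme genes, 15 were tested, 2 were called higher and 4 lower, and the median log2 fold change was -0.06. For this list and those below, 10.2% of all tested genes were called higher and 8.64% lower. Msra, which repairs oxidised methionine, rose from 55.8 ± 7.08 to 81.5 ± 10.8 CPM (SD, n = 5), by 0.55 on the log2 scale (edgeR adjusted p 0.00401). Gpx8, a glutathione peroxidase of the endoplasmic reticulum, rose by 0.41 on the log2 scale (edgeR adjusted p 0.0344). Its values stayed higher by 0.36 to 0.49 with any 1 animal left out, while the call was lost without heterozygote 1, 3 or 4 or knockout 1 or 3 (adjusted p up to 0.0942). Of the 3 enzymes that repair the other form of oxidised methionine, 2 fell, and the most abundant, Msrb3, was at 327 and 354 CPM and did not pass (0.12, adjusted p 0.329). Sepx1, the selenoprotein also named Msrb1, fell from 41.9 ± 5.49 to 25.1 ± 8.84 CPM (-0.74, adjusted p 0.0122), and the mitochondrial Msrb2 fell from 90.8 ± 11.1 to 66.8 ± 3.39 CPM (-0.44, adjusted p 0.00549). Among the remaining peroxiredoxins, Prdx2 had values of 646 and 548 CPM with groups that did not overlap, and did not pass (adjusted p 0.0646). Prdx6, with 348 and 361 CPM, had a 95% interval of 0.919-fold to 1.17-fold.

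**Figure D4:**
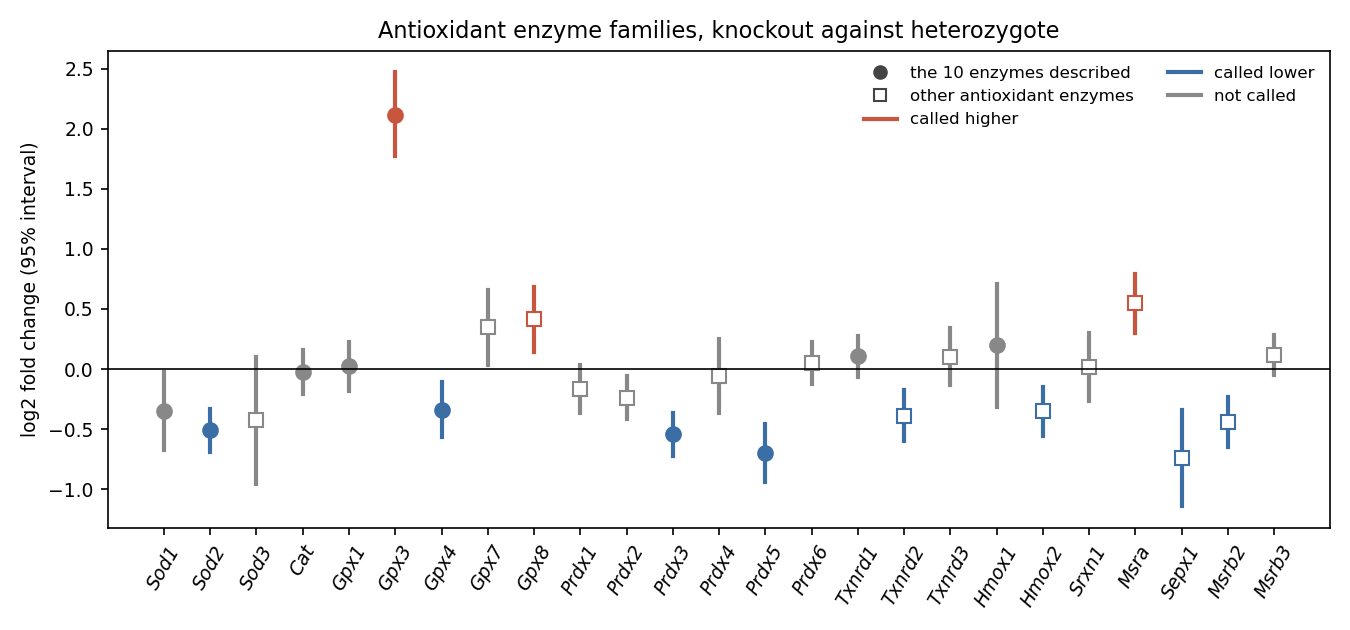
Log2 fold change (knockout against heterozygote, 95% interval) of the 10 antioxidant enzyme genes (circles) and the 15 tested relatives (squares), ordered by family; red is called higher, blue called lower and grey not called. Gpx3, at 2.12, stands far above the rest, and the called falls lie between -0.74 and -0.34.

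Supply of reducing power was read from 22 genes of glutathione, thioredoxin and NADPH metabolism. Of the 20 tested, 1 was called higher and 7 lower (median -0.24). Gsr, which regenerates glutathione, was called higher (log2 fold change 0.34, edgeR adjusted p 0.0484). That call was lost without heterozygote 1, 2 or 3 or any 1 of the knockouts (adjusted p up to 0.125). RLE scaling (0.0564), upper-quartile scaling (0.0695) and omitting the filter (0.0559) also removed it. Among called genes averaging 5 CPM or more, the largest falls were those of the NADPH-producing enzymes Idh1 (from 71.9 ± 14.1 to 46.6 ± 4.83 CPM, -0.63, adjusted p 0.00368) and Me1 (from 143 ± 16.9 to 97.7 ± 5.10 CPM, -0.55, adjusted p 0.00117). Txn2, the mitochondrial thioredoxin that serves Prdx3, fell from 351 ± 76.5 to 260.2 ± 32.3 CPM (-0.43, adjusted p 0.0363), a call lost without heterozygote 1 or 2 or knockout 2, 3, 4 or 5 (up to 0.0883). Heterozygote 2 stood at 486 CPM of Txn2, against 305 to 339 CPM in the other heterozygotes, and without it the log2 fold change was -0.29. The mitochondrial NAD kinase gene, listed as 1110020G09Rik, fell by 0.43 (adjusted p 0.0470), a call lost without heterozygote 1, 3 or 5 or knockout 1, 3, 4 or 5 (up to 0.121). Me1 shares exon sequence with A330041J22Rik.

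Of 25 genes known as targets of NRF2, 23 were tested, with a median of -0.20. Of these, 2 were called higher and 5 lower, beside 10.2% and 8.64% of all tested genes. This list shares genes with those above, so its counts are not separate from theirs. Txnrd1 and Hmox1 are among those not called. Ephx1, a detoxifying epoxide hydrolase, rose from 10.4 ± 2.16 to 22.4 ± 3.05 CPM (1.11, edgeR adjusted p 0.000252), and the glutathione conjugate exporter Abcc1 rose from 71.6 ± 13 to 138 ± 21.2 CPM (0.94, adjusted p 0.000319). The ferritin heavy chain gene Fth1 fell from 2016 ± 149 to 1328 ± 101 CPM (-0.60, adjusted p 0.000220). Of the glutathione transferases, Gstm1 fell by 0.79 (adjusted p 0.000908) and Gsta4 by 0.56 (adjusted p 0.00781). The biliverdin reductase B gene, Blvrb, fell by 0.61 (adjusted p 0.00568). Nfe2l2, the gene of NRF2, was at 81.5 and 108 CPM and did not pass (0.41, adjusted p 0.186), and neither did its inhibitor Keap1 (0.05, adjusted p 0.820).

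Among 17 regulators of redox genes (16 tested, median 0.08), 2 were called higher and 1 lower. Both counts are near the shares of all tested genes, 10.2% and 8.64%. Mafk, a small MAF partner of NRF2, rose from 53.0 ± 18 to 88.6 ± 14.1 CPM (0.75, edgeR adjusted p 0.0138), and Hif1a rose from 224 ± 53.3 to 328 ± 22.3 CPM (0.55, adjusted p 0.0154). Sirt3, the mitochondrial deacetylase that activates SOD2 protein, fell from 77.9 ± 17.1 to 50.9 ± 4.92 CPM (-0.61, adjusted p 0.00530) and shares exon sequence with Ric8. Of 19 oxidant-producing enzymes, 10 were tested and 2 fell, the NADPH oxidase subunit Cyba (-0.44, adjusted p 0.0143) and the sulfide oxidase gene Sqrdl (-0.57, adjusted p 0.00621). Of 19 genes for copper, selenium and metal supply, all tested (median 0.09), only the copper importer Slc31a1 was called (from 115 ± 9.73 to 90.8 ± 5.31 CPM, -0.34, adjusted p 0.0138). The copper chaperone of SOD1, Ccs, had a log2 fold change of 0.12 (adjusted p 0.471).

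With the endothelial covariate, the calls of the following genes were lost (edgeR adjusted p 0.0508 to 0.435), each with its direction kept. The log2 fold change was smaller in size for Gpx8 (0.25), Abcd2 (-0.81), Msra (0.54), Blvrb, Hif1a and Slc31a1. It was larger in size for Sepx1 (-0.87), Hmox2, Txnrd2, Gsr, Txn2, 1110020G09Rik, Gsta4, Sirt3, Cyba and Timm44. The cause of these lost calls was not tested.

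The organelles that house the enzymes were read from separate lists. Of 21 mitochondrial genes, from the matrix, the inner membrane and protein import, 15 were called lower and 0 higher. Their median log2 fold change was -0.46, beside -0.51 for Sod2 and -0.54 for Prdx3. The ADP/ATP carrier gene Slc25a4 fell from 8501.5 ± 1626 to 5296 ± 573 CPM (-0.68, edgeR adjusted p 0.00135), and Phb2, Timm23 and Timm44 fell by 0.71, 0.58 and 0.57. Of 28 peroxisome genes in the table, 11 were called lower and 0 higher (median -0.30), beside -0.02 for the peroxisomal Cat. Pxmp2, a peroxisomal membrane channel, fell from 50.8 ± 4.17 to 27.0 ± 2.07 CPM (-0.91, adjusted p 1.76e-05), and Pex11a, Abcd2 and Crat fell by 0.85, 1.14 and 0.69. Crat, whose enzyme is also found in mitochondria, shares exon sequence with Dolpp1. The difference between Cat and these genes was not tested.

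The genes nearest to Gpx3 and Prdx5 in pattern were sought among 8368 others with a mean of at least 10 CPM, by the root mean square difference of centred log2 CPM over the 10 samples. Nearest to Gpx3 were Clu, the secreted chaperone clusterin (0.208), Xirp2, an actin-binding protein of muscle (0.237), and Dpysl3 (0.249), which had log2 fold changes of 1.87, 2.18 and 2.16. Nearest to Prdx5 were Ndufs7 (0.0437), Ndufs8 (0.0573) and Ndufb10 (0.0774), all of them subunits of respiratory complex I. Ndufs7 went from 768 to 486 CPM, Ndufs8 from 541 to 329 CPM and Ndufb10 from 1042 to 628 CPM. These distances are a description, since both members were named for their size of change.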

How the data were processed

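Poly(A) RNA of sorted cardiomyocytes was measured in 10 samples, grouped by the genotype in their titles. The deposited values are raw counts of reads per gene, made by the authors with featureCounts 1.5.1 against the UCSC annotation of mm10, per the file headers; the submitters' processing notes list Subread 1.5.2 and STAR 2.5.3a. With that program's defaults, strand is ignored and reads that map to several places are left out, so genes with near-identical copies can read too low. The table's 4 count columns that match no sample of the series were not used.

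Counts were filtered (filterByExpr, minimum count 10, minimum total 15), scaled by TMM and tested by the quasi-likelihood method of edgeR 4.0.16 in R 4.3.3, with genotype as the only term and all 10 samples in the fit, with Benjamini-Hochberg adjustment over all 11870 tested genes. SE is the log2 fold change divided by the square root of F. Ratios used log2 CPM with a prior count of 1 and exact permutation tests (scipy 1.17.1). Alternatives were RLE, upper-quartile and no scaling factors, 2 other filters, the replicate number as a block, DESeq2 1.42.0, limma 3.58.1 (voom), covariates, and leaving out each animal. The fit was tested on simulated counts. P-values measure the spread between animals, which the series text calls biological replicates.

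The 10 genes and the other lists were chosen with earlier results of these data known. From each list other than cell markers, called genes with a mean of 5 CPM or more are named, up to 4 with the largest rise and 4 with the largest fall; Prdx2, Prdx6, Msrb3, Nfe2l2, Keap1, Ccs, Fcgr1 and Ptprc were named after their values were seen. The 3 genes nearest to the members with the largest rise and fall were named too.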

Additional observations from a re-analysis of the deposited data

Results flagged for a closer look

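A sample was noted where, among the 5 of its group, it lay farther from its closest neighbour than 0.71 times the group's full span. This was so in 4 of 32 groups, where chance gives about 1 in 20.

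Heterozygote 2 was noted for both Prdx5 (8.75 log2 CPM, against 8.36 in the next highest, gap 0.819 of the range) and Gpx4 (8.09 against 7.87, gap 0.711). Without it the log2 fold changes were -0.60 and -0.28, and only the Prdx5 call was kept. The Txnrd1 to Txnrd2 log2 ratio was 0.76 in knockout 3, against 0.99 in the next lowest knockout (gap 0.727), and still above every heterozygote. Heterozygote 1 had a total of 25237696 counts, the second deepest of that group having 10309615 (gap 0.870). No cause was tested for these values.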

How the results depend on the processing

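The number of antioxidant enzyme genes called, 5, stayed between 4 and 6 in every setting run, with Gpx3, Sod2, Prdx3 and Prdx5 called in all of them. With the endothelial covariate, calls over all genes fell to 934, of which 481 were higher and 453 lower, in place of 2241, 1216 and 1025; leaving out single animals gave 1699 to 2258. The Y-linked covariate was added after seeing the data and changed no call of the 10 genes. Among the other named genes it removed the calls of Gpx8 (edgeR adjusted p 0.0535), Gsr (0.0548), 1110020G09Rik (0.0772), Usp18 (0.234) and Rsad2 (0.0718). Library totals removed the calls of Txn2 (0.0539) and 1110020G09Rik (0.103), and the latter was also lost without a filter (0.0518). The sign of Cat, not called, reversed with library totals (0.0586) and over single animals left out (-0.0633 to 0.0118). The sign of Gpx1 reversed with upper quartiles (-0.00416) and over single animals (-0.0411 to 0.0678). The cause of these changes was not tested. Replicate numbers are shared by the groups, but the same-numbered samples correlated above 0.1 in only 3 of 5 pairs (-0.0604 to 0.185), and 2 of 5 knockouts were most like the heterozygote of their own number. With the replicate block, 2182 genes were called, and the calls of Gpx4 (adjusted p 0.0668), Gpx8 (0.0580), 1110020G09Rik (0.0733) and Usp18 (0.174) were lost. Sign flips within the replicate block gave the same differences for Txnrd1 to Txnrd2 (0.492) and Hmox1 to Hmox2 (0.597) with an adjusted p of 0.125, in a design whose smallest p is 0.0625. Of 39 other named genes, 21 kept their call in every setting, and none reversed. Without division by length, the heterozygote level rank was 1 for Sod2, 3 for Cat, 4 for Prdx5, 5 for Gpx4, 7 for Gpx3, 8 for Txnrd1 and 9 for Sod1. Depth limits Hmox1 most.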

Other observations

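The globin genes Hba-a1, Hba-a2, Hbb-b1 and Hbb-b2 had 0 counts in every library. They are near-identical copies, whose reads this counting can leave out. All 7 erythroid markers in the table, these included, summed to 0.222 to 1.41 CPM in heterozygotes and 0.396 to 0.625 CPM in knockouts. The cause of the globin zeros was not tested. The summed length-scaled level of the 10 antioxidant enzyme genes was 1724 ± 118 CPM per kilobase in the heterozygote and 1459.7 ± 135 in the knockout (SD, n = 5), with ranges of 1603 to 1915 and 1307 to 1604. Of 12 interferon-response genes, 8 were tested and 2 were called lower (median log2 fold change -1.63); heterozygote 3 alone held 768 CPM of them. The called genes were Usp18 (-3.11, edgeR adjusted p 0.0407) and Rsad2 (-1.29, adjusted p 0.0270), and without heterozygote 3 Usp18 had -0.55 (adjusted p 0.361) and Rsad2 -0.74 (adjusted p 0.0481). The Usp18 call was also lost without any 1 of the knockouts (adjusted p up to 0.0934), with the endothelial covariate (0.580), with the Y-linked covariate (0.234), with voom (0.341) and with the replicate block (0.174). The Rsad2 call was also lost without knockout 3, 4 or 5 (adjusted p up to 0.0631), with the endothelial covariate (0.265) and with the Y-linked covariate (0.0718).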
